A study of Homo sapiens with 10 samples.

Results

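Desmosome components are the genes for the proteins that build the desmosome, the adhesive junction that ties the keratin filaments of neighbouring epithelial cells together. The 10 genes described here, DSP, DSG2, DSC2, DSC3, PKP2, PKP3, JUP, PPL, EVPL and PERP, were listed by name as parts of this junction, with earlier results of these data known. All 10 were found among the 58050 genes of the TPM table (TPM are transcript shares that take length into account and sum to a fixed total), and all 10 were among the 13581 tested genes, those averaging at least 1 TPM. HCT116 is a human colorectal carcinoma cell line, and the transcriptomes compared were those of 5 cultures of HCT116-WT cells and 5 cultures of HCT116-CD276KO cells, all grown in McCoy's 5A medium with serum. CD276, also called B7-H3, is a cell surface protein of the B7 family and was targeted with Cas9 and a guide RNA delivered together as a complex. The knockout cultures were grown from 1 single cell clone, so the comparison is between that clone and the HCT116-WT cells, and the spread is that between cultures. The labels do not say whether the HCT116-WT cultures had received the scrambled guide.

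In a desmosome, the cadherins (desmogleins and desmocollins) reach across the gap between cells and bind those of the neighbouring cell. Inside the cell their tails are held by the armadillo proteins plakoglobin and the plakophilins, which are in turn bound by desmoplakin, the plakin that grips the keratin filaments. Simple epithelia such as the gut lining rely on the DSG2 and DSC2 pair, while DSG1, DSG3 and DSC1 belong to stratified epithelia such as skin.

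The targeted gene, CD276, ranged from 38.1 to 53.6 TPM in HCT116-WT and from 4.4 to 7.42 TPM in HCT116-CD276KO libraries (12.1% of the HCT116-WT mean). Of the 13581 genes tested in limma, 4.09% had an adjusted p-value under 0.05 and were lower in HCT116-CD276KO cells, and 0.781% were higher. Of the calls, 84.0% were lower, a share that was 66.2% after median-of-ratios scaling, 60.3% after quantile normalization and 58.6% after correction of each library for transcript length and GC content. This correction was made because the libraries had different trends with transcript length and with GC content. Spearman's rho between transcript length and the deviation of a gene from its mean, taken over the genes of 1 library, was -0.52 and -0.49 in HCT116-CD276KO replicates 2 and 3 and between -0.09 and 0.43 in the other 8 libraries. With GC content it was 0.61 in HCT116-WT replicate 3, 0.48 in HCT116-CD276KO replicate 2 and between -0.34 and 0.02 in the others. Genes with transcripts of at least 5000 bases had a median log2 fold change of -0.20 and shorter ones of -0.05, and 6 of the 10 desmosome genes (DSP, DSG2, DSC2, DSC3, PPL and EVPL) have transcripts of at least 5000 bases. The part of length and GC content in the results below was not tested beyond the corrected values given with them.

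The cells carried epithelial RNA, with the keratin gene KRT8 averaging 2082 TPM in HCT116-WT and 1553 TPM in HCT116-CD276KO cells and the epithelial cadherin gene CDH1 averaging 42.7 and 20.4 TPM. Of 9 markers of colorectal epithelium, KRT20, VIL1, CDX1 and LGALS4 were under 1 TPM in every library. Of the 5 tested, 4 (KRT8, KRT18, KRT19 and CDH1) were lower in HCT116-CD276KO cells with an adjusted p-value under 0.05. Over all tested genes this share was 4.09%. The other marker, the intestinal transcription factor gene CDX2, averaged 8.91 and 9.27 TPM. After median-of-ratios scaling the adjusted p-values in limma were 0.0692 for KRT8, 0.0532 for KRT18, 0.263 for KRT19 and 0.00203 for CDH1. The same 4 passed after quantile normalization and after the length and GC correction. The part of these markers' fall in the desmosome results was not tested. Markers of other cells were near 0: the 5 leukocyte markers reached at most 0.20 TPM, the 4 endothelial markers at most 0.50 TPM, and 5 of 6 fibroblast markers stayed under 1 TPM. The sixth, the collagen gene COL1A1, averaged 7.31 TPM in HCT116-WT and 5.57 TPM in HCT116-CD276KO cells. The summed fibroblast markers ranged from 6.02 to 8.99 TPM in HCT116-WT and from 4.54 to 7.51 TPM in HCT116-CD276KO libraries, the leukocyte markers from 0.07 to 0.32 and from 0.11 to 0.30 TPM, and the endothelial markers from 0.10 to 0.65 and from 0.10 to 0.33 TPM. In bulk RNA, fewer cells with a transcript and less of it per cell cannot be told apart.

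All 10 desmosome genes had lower mean TPM in HCT116-CD276KO cells. Their log2 fold changes were negative, as were those of 9243 of all 13581 tested genes. Of the 10, 4 (PKP3, DSC2, EVPL and JUP) fell with an adjusted p-value under 0.05, beside 4.09% of all tested genes. None of the 10 was higher. PKP3 was also past 2-fold, which 0.464% of the tested genes were in this direction. The median log2 fold change of the 10 was -0.50, beside -0.09 over all genes tested. The 5 values of each group did not overlap in 5 of the 10 (PKP3, DSC2, EVPL, JUP and PKP2), where 6.19% of all tested genes were lower without overlap. This count of desmosome genes was 4 after median-of-ratios scaling and 4 after quantile normalization, for which the share over all genes is not given here. After the length and GC correction, 5 desmosome genes were lower, DSG2 in addition to the 4, beside 5.6% of genes lower and 3.96% higher in the corrected values. Their corrected median was -0.35, against 0.003 over all genes, and 6 did not overlap (PKP3, DSC2, EVPL, JUP, DSG2 and DSP), against 6.02% of genes. Without HCT116-CD276KO replicates 2 and 3, the count with an adjusted p-value under 0.05 was 2 (PKP3 and JUP) on deposited TPM and 5 on corrected values. Over all genes this omission left 339 calls on deposited TPM, beside 662 with all libraries, and the number on corrected values is not given here.

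**Figure D1:**
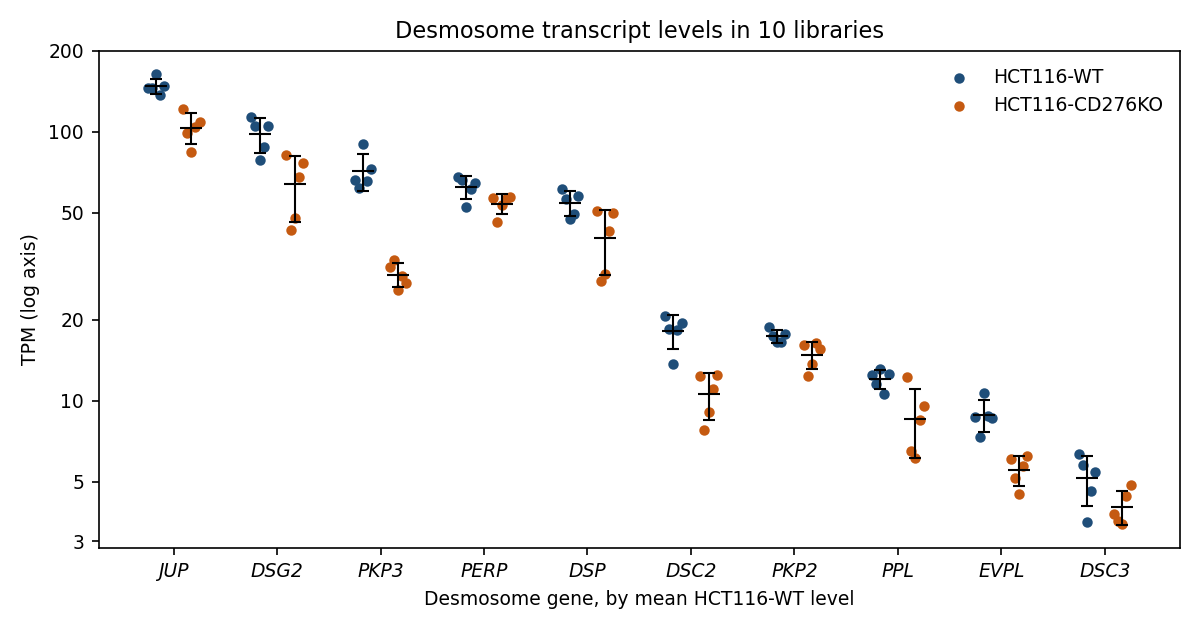
Levels of the 10 desmosome genes, ordered by their mean in HCT116-WT cells, in TPM on a log axis. Points are single libraries, long bars the mean and error bars the SD of 5 cultures. The groups do not overlap for PKP3, JUP, DSC2, EVPL and PKP2. For PKP2 they nearly touch, at 16.41 TPM (highest HCT116-CD276KO value) and 16.49 TPM (lowest HCT116-WT value).

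The order of the genes by level was led by JUP in both groups. In HCT116-WT cells JUP stood apart from DSG2, PKP3, PERP and DSP, whose neighbouring values overlapped. DSC2 and PKP2 overlapped each other and lay below them, followed by PPL and EVPL, and DSC3 was lowest. PKP3 was at rank 3 in HCT116-WT cells, with 71.2 TPM, and at rank 5 in HCT116-CD276KO cells, with 29.4 TPM, where its values overlapped those of DSP above it and lay apart from those of PKP2 below it. In HCT116-CD276KO cells the 5 lowest genes, PKP2, DSC2, PPL, EVPL and DSC3, each overlapped the next in the order.

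The start regions of the 3 desmosome genes that both fell on corrected values and have an entry in the RefSeq promoter table (GRCh38.p14) are shown so that the sequence at the start of the cadherin pair can be compared with that of their plakoglobin partner. Each window runs from 250 bases before to 50 bases after the start of transcription, 5′ to 3′ on the strand of the gene, and lies at chr18:31102372-31102671 on the minus strand for DSC2, chr18:31497927-31498226 on the plus strand for DSG2 and chr17:41786662-41786961 on the minus strand for JUP. Capitals mark CAGGTG, the E-box bound by SNAI and ZEB factors, and GGGCGG, the box of SP and KLF factors, on either strand, and no match overlapped another in these windows.
DSC2: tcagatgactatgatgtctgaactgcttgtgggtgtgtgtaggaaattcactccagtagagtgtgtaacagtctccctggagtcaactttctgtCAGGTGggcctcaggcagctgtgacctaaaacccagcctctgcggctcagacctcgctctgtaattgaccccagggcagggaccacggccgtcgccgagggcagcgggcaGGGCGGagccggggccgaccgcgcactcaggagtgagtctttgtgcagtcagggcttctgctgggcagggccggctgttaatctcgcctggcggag
DSG2: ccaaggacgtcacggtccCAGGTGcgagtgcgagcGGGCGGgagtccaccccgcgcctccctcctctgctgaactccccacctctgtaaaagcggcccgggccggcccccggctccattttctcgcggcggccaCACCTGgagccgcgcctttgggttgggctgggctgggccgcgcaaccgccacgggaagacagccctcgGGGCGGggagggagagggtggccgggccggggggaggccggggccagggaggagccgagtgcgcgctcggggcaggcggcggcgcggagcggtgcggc
JUP: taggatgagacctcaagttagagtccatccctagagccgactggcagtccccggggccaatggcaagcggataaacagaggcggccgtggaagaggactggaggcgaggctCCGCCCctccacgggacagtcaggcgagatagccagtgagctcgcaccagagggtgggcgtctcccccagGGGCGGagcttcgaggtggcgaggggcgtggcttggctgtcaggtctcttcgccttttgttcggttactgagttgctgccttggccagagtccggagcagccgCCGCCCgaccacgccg
The table had entries for 6 of the 10 genes (DSP, DSG2, DSC2, DSC3, JUP and PERP). CAGGTG stood in 3 of the 6, DSC2, DSG2 and DSP, and in 20.6% of the windows of all 27305 genes. GGGCGG stood in 5 of the 6, all but DSC3, and in 44.6% of all windows. The AP-1 motif TGANTCA was found only in PERP among the 6 (7.76% of all windows), and the grainyhead motif AACCNGTT in none of them (1.73%). The windows of DSG2, JUP and DSC2 had GC contents of 76.7%, 65.3% and 60.7%, beside a median of 58.3% over all windows.

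Of the desmosomal cadherins, DSC2 fell and DSG2 was lower on corrected values. DSG2 (ENSG00000046604, chromosome 18, 31498177 to 31549008, plus strand, hg38) encodes desmoglein 2, the desmoglein of simple epithelia, and was the most abundant cadherin of the junction. Its levels in HCT116-WT replicates 1 to 5 were 113.3, 104.7, 78.5, 87.8 and 105.4 TPM. In HCT116-CD276KO replicates 1 to 5 they were 82.3, 43.3, 47.9, 68.1 and 76.8 TPM. HCT116-CD276KO replicate 1 was above the lowest HCT116-WT library, and replicates 2 and 3 were far lower than the other 3. The means were 97.9 ± 14.3 and 63.7 ± 17.3 TPM (SD, n = 5), and the log2 difference in limma was -0.65, its standard error 0.18 and its adjusted p-value 0.0629. Without HCT116-CD276KO replicate 1 it was -0.75, with an adjusted p-value of 0.0353, and without HCT116-CD276KO replicates 2 and 3 it was -0.36, with 0.1995. Over the 5 HCT116-CD276KO libraries, corrected values lay 0.24 to 0.71 below the HCT116-WT mean on the log2 scale, without overlap, with a log2 fold change of -0.47 (standard error 0.09) and an adjusted p-value of 0.00882.

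DSC2 (ENSG00000134755, chromosome 18, 31058840 to 31102522, minus strand) encodes desmocollin 2, the partner of desmoglein 2. It was measured at 20.7, 18.5, 13.7, 18.3 and 19.4 TPM in HCT116-WT replicates 1 to 5. The HCT116-CD276KO cultures had 12.4, 7.75, 9.08, 11.1 and 12.5 TPM in the same order. Every HCT116-CD276KO library was lower than every HCT116-WT library, with HCT116-WT replicate 3 closest to them. DSC2 fell from 18.1 ± 2.64 to 10.6 ± 2.08 TPM (SD, n = 5), with a log2 fold change of -0.74 (standard error 0.14) and an adjusted p-value of 0.0120. After correction the 5 HCT116-CD276KO libraries lay within a narrow span, 0.45 to 0.54 below the HCT116-WT mean on the log2 scale, and the adjusted p-value was 0.000108. Without HCT116-CD276KO replicates 2 and 3 the uncorrected log2 fold change was -0.55, with an adjusted p-value of 0.0530.

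DSC3 (ENSG00000134762, chromosome 18, 30989365 to 31042815, minus strand) encodes desmocollin 3, best known from the basal layers of stratified epithelia, and was the least abundant of the 10 genes. Its HCT116-WT libraries ranged from 3.55 to 6.34 TPM and its HCT116-CD276KO libraries from 3.48 to 4.84 TPM. The log2 fold change was -0.28 (95% confidence interval -0.58 to 0.02) with an adjusted p-value of 0.253, and on corrected values -0.09 with an adjusted p-value of 0.593. The other cadherins of the junction, DSG1, DSG3, DSG4 and DSC1, were under 1 TPM in every library. The sum of all 7 desmosomal cadherins was between 95.8 and 140.4 TPM in HCT116-WT and between 54.6 and 98.5 TPM in HCT116-CD276KO cells. DSG2 made up 79.2% to 81.9% of that sum in HCT116-WT and 79.2% to 83.5% in HCT116-CD276KO libraries. DSC3 took 3.71% to 4.52% and 3.86% to 6.55%.

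**Figure D2:**
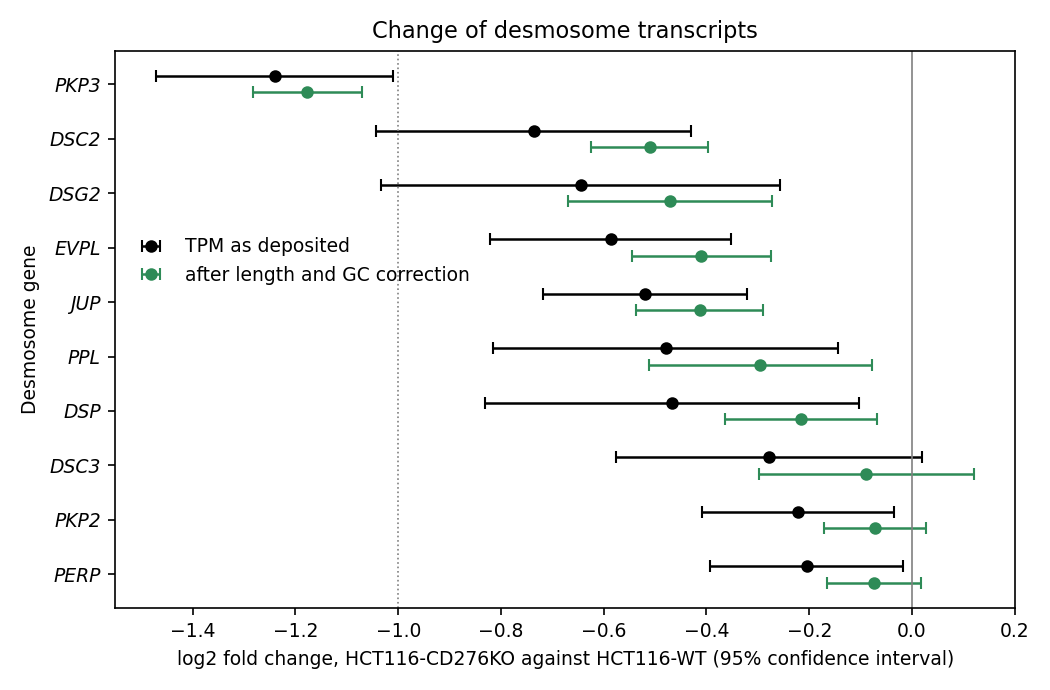
Log2 fold changes of the 10 desmosome genes between HCT116-CD276KO and HCT116-WT cells with 95% confidence intervals from limma, on deposited TPM in black and after the length and GC correction in green. The dotted line marks a 2-fold fall, which PKP3 alone passed, and correction brought each estimate nearer to 0 and, in all 10 genes, narrowed the interval.

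Among the armadillo proteins, PKP3 fell furthest and JUP fell less, whereas PKP2 was called on neither scale. PKP3 (ENSG00000184363, chromosome 11, 392614 to 404908, plus strand) encodes plakophilin 3, which is known to bind nearly all desmosomal cadherins. HCT116-WT replicates 1 to 5 had 66.3, 61.8, 89.8, 65.5 and 72.8 TPM. HCT116-CD276KO replicates 1 to 5 had 31.5, 33.3, 25.8, 29.0 and 27.4 TPM. The highest HCT116-CD276KO library was far below the lowest HCT116-WT library, and the highest of all was HCT116-WT replicate 3, the library with the strongest GC trend (the transcript has a GC content of 66.7%). PKP3 fell from 71.2 ± 11.1 to 29.4 ± 3.00 TPM (SD, n = 5), to 41.3% of the HCT116-WT level, with a log2 fold change of -1.24 (standard error 0.11) and an adjusted p-value of 3.18e-05. The two-sided exact permutation test gave p = 0.00794, the smallest that 5 against 5 allow. In the order of falls among all tested genes PKP3 stood at place 65. On corrected values the log2 fold change was -1.18 (standard error 0.05) and the adjusted p-value 7.19e-08. Over 21 alternatives it lay between -1.29 and -1.14, and no adjusted p-value was above 0.00205.

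JUP (ENSG00000173801, chromosome 17, 41754604 to 41786931, minus strand) encodes plakoglobin, which links both desmosomal and classical cadherins to the cell interior, and it was the most abundant desmosome transcript. Across the HCT116-WT replicates its values were 145.1, 145.6, 163.7, 137.0 and 147.9 TPM. They were 121.6, 98.8, 84.1, 104.0 and 108.5 TPM in HCT116-CD276KO replicates 1 to 5. All HCT116-CD276KO libraries were below all HCT116-WT libraries. JUP fell from 147.9 ± 9.77 to 103.4 ± 13.7 TPM (SD, n = 5), with a log2 fold change of -0.52 (standard error 0.09) and an adjusted p-value of 0.00725, and by 0.41 on the log2 scale after correction, with an adjusted p-value of 0.00104.

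PKP2 (ENSG00000057294, chromosome 12, 32790745 to 32896798, minus strand) encodes plakophilin 2, a plakophilin of heart muscle and simple epithelia. The HCT116-WT libraries had 18.8, 17.4, 16.5, 16.5 and 17.8 TPM. The HCT116-CD276KO libraries had 16.2, 12.4, 13.7, 16.4 and 15.5 TPM. The groups did not overlap, but the highest HCT116-CD276KO value, 16.41 TPM, lay just under the lowest HCT116-WT value, 16.49 TPM. The log2 fold change was -0.22 (95% confidence interval -0.41 to -0.03) with an adjusted p-value of 0.160, and on corrected values -0.07 (-0.17 to 0.03) with an adjusted p-value of 0.339.

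PKP1 was under 1 TPM in every library, so PKP2 and PKP3 made up nearly all of the 3 classical plakophilins. PKP3 accounted for 77.9% to 84.5% of them in HCT116-WT and for 63.8% to 72.8% in HCT116-CD276KO cells. PKP4, a more distant plakophilin relative that is also found at adherens junctions, averaged 43.9 ± 4.96 and 36.2 ± 6.34 TPM (SD, n = 5), with a log2 fold change of -0.28 and an adjusted p-value of 0.202 (-0.12 and 0.294 after correction). The remaining desmosome gene of that list, CDSN, which encodes corneodesmosin of the outer skin, was at most 0.18 TPM.

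Of the plakins, EVPL fell, whereas PPL and DSP did not pass the test. EVPL (ENSG00000167880, chromosome 17, 76004502 to 76027306, minus strand) encodes envoplakin, a plakin of the cornified envelope that associates with desmosomes and keratin. Its HCT116-WT values were 8.72, 7.34, 10.7, 8.76 and 8.61 TPM in replicates 1 to 5. Those of HCT116-CD276KO replicates 1 to 5 were 6.07, 5.17, 4.5, 5.69 and 6.24 TPM. The groups did not overlap, and the means were 8.82 ± 1.19 and 5.53 ± 0.709 TPM (SD, n = 5). EVPL fell by 0.59 on the log2 scale (standard error 0.11, adjusted p-value 0.00950), and by 0.41 after correction with an adjusted p-value of 0.00195. Without HCT116-CD276KO replicates 2 and 3 the adjusted p-value on deposited TPM was 0.0531. CDK3, a gene that overlaps EVPL on the other strand, averaged 1.06 TPM in HCT116-WT and 0.648 TPM in HCT116-CD276KO cells.

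PPL (ENSG00000118898, chromosome 16, 4882507 to 4960741, minus strand) encodes periplakin, the plakin with which envoplakin pairs. HCT116-WT replicates 1 to 5 had 12.4, 11.5, 13.1, 10.6 and 12.6 TPM, and HCT116-CD276KO replicates 1 to 5 had 12.2, 6.49, 6.14, 8.45 and 9.54 TPM. HCT116-CD276KO replicate 1 stood among the HCT116-WT libraries, and the other 4 were lower than all of them. The log2 fold change was -0.48 (95% confidence interval -0.81 to -0.14) with an adjusted p-value of 0.103. Leaving out HCT116-CD276KO replicate 1 gave -0.60 with an adjusted p-value of 0.0220, whereas leaving out replicates 2 and 3 of that group gave -0.25 with an adjusted p-value of 0.361. On corrected values that replicate was still level with the HCT116-WT mean, and the log2 fold change was -0.30 with an adjusted p-value of 0.0873.

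DSP (ENSG00000096696, chromosome 6, 7541338 to 7586714, plus strand) encodes desmoplakin, the obligate link from the junction to keratin. Its HCT116-WT libraries had 61.3, 56.4, 47.5, 49.3 and 57.6 TPM in replicates 1 to 5, and its HCT116-CD276KO libraries 50.6, 27.9, 29.6, 42.8 and 49.7 TPM. Replicates 2 and 3 of HCT116-CD276KO were the lowest, and replicates 1 and 5 lay within the HCT116-WT range. The log2 fold change was -0.47 (95% confidence interval -0.83 to -0.10) with an adjusted p-value of 0.134, and without HCT116-CD276KO replicates 2 and 3 it was -0.18 with an adjusted p-value of 0.432. With corrected values it was -0.22 (-0.36 to -0.07) with an adjusted p-value of 0.0699. The groups then no longer overlapped, but the highest HCT116-CD276KO value, 5.562 on the log2 scale, lay just under the lowest HCT116-WT value, 5.574.

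PERP (ENSG00000112378, chromosome 6, 138088505 to 138107419, minus strand) encodes a tetraspan membrane protein of desmosomes that is a known p53 target. HCT116-WT libraries ranged from 52.3 to 67.6 TPM and HCT116-CD276KO libraries from 46.03 to 56.96 TPM, with overlap. Its log2 fold change was the smallest of the 10, at -0.20 (95% confidence interval -0.39 to -0.02), with an adjusted p-value of 0.195. After correction it was -0.07 (-0.17 to 0.02).

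Ratios of 2 desmosome transcripts within a library asked whether partners moved apart, and 4 were compared, with Benjamini-Hochberg adjustment over the 4. The ratio of PKP3 to PKP2 was 3.52, 3.56, 5.43, 3.98 and 4.10 in HCT116-WT replicates 1 to 5 and 1.95, 2.68, 1.89, 1.77 and 1.77 in HCT116-CD276KO replicates 1 to 5. It fell by 1.02 on the log2 scale of TPM + 1 (95% interval -1.37 to -0.66 from the inverted permutation test; two-sided exact permutation test, p = 0.00794, adjusted p = 0.0318), so that PKP3 was lower relative to PKP2. Without HCT116-WT replicate 3 the change was -0.92 with an adjusted p of 0.0635 by the same exact test. The remaining HCT116-WT ratios, at 3.52 or more, still lay above all HCT116-CD276KO ratios, at 2.68 or less. On corrected values from all 10 libraries it was -1.10 (exact permutation, adjusted p = 0.0159).

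The other 3 ratios did not pass the test. DSC2 to DSG2 was between 0.175 and 0.209 in HCT116-WT and between 0.150 and 0.190 in HCT116-CD276KO libraries, a log2 difference of -0.09 (95% interval -0.28 to 0.11; exact permutation, adjusted p = 0.593). Without HCT116-CD276KO replicates 2 and 3 it was -0.19 with an adjusted p of 0.0357 by the exact permutation test. EVPL to PPL was between 0.638 and 0.830 and between 0.498 and 0.797, a log2 difference of -0.11 (-0.40 to 0.19; exact permutation, adjusted p = 0.593). JUP to DSP was between 2.37 and 3.45 and between 2.18 and 3.54, a log2 difference of -0.05 (-0.38 to 0.33; exact permutation, adjusted p = 0.722). These transcripts differ in length, and on corrected values the difference of JUP to DSP was -0.20 (exact permutation, adjusted p = 0.0159), that of DSC2 to DSG2 -0.04 (0.722) and that of EVPL to PPL -0.11 (0.529).

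Genes that work with the desmosome were counted from lists chosen with earlier results of these data known. Of 12 keratins and other filament or plakin genes, 11 were tested, 6 fell and 1 rose, beside 4.09% and 0.781% of all tested genes, with a median log2 fold change of -0.42. KRT8, KRT18 and KRT19, the keratins of simple epithelia that desmoplakin holds, fell by 0.42, 0.39 and 0.29 on the log2 scale, with adjusted p-values of 0.00441, 0.00263 and 0.0487. After median-of-ratios scaling the falls were 0.32, 0.29 and 0.19 with adjusted p-values of 0.0692, 0.0532 and 0.263, whereas quantile normalization gave 0.000418, 0.00132 and 0.00790 and the length and GC correction 3.69e-05, 0.00113 and 0.000639. The keratins have many pseudogenes, so reads may be shared. KRT7 fell from 11.99 ± 1.36 to 2.05 ± 0.838 TPM (SD, n = 5), with an adjusted p-value of 9.89e-06 and a log2 fold change of -2.12 (-2.11 after correction). KRT80 and the cytoskeletal linker gene MACF1 fell by 0.49 and 0.74 with adjusted p-values of 0.0292 and 0.0329, and on corrected values by 0.36 and 0.46 with 0.0583 and 0.00427. KRT80 averaged 1.45 and 0.75 TPM, so that its log2 difference depended on the pseudocount (-0.89 with 0.1 and -0.95 from mean TPM), and its adjusted p-value was 0.0560 after quantile normalization and 0.0508 after median-of-ratios scaling. With 1 library left out, the adjusted p-value of KRT19 reached 0.119 and was above 0.05 without any library but HCT116-CD276KO replicate 2. That of KRT80 reached 0.0673 (above 0.05 without HCT116-WT replicates 1, 4 or 5 or HCT116-CD276KO replicates 3 or 4), and that of MACF1 0.0835 (without HCT116-WT replicates 1, 2, 4 or 5 or HCT116-CD276KO replicates 2, 3 or 4). VIM, the vimentin gene of mesenchymal filaments, rose from 4.22 to 6.80 TPM, by 0.58 on the log2 scale with an adjusted p-value of 0.000656 and by 0.64 after correction. On corrected values 5 genes of this list were lower and 2 higher (VIM and KRT23), beside 5.6% and 3.96% of all genes. The keratin gene KRT23 averaged 7.12 TPM in HCT116-WT and 8.99 TPM in HCT116-CD276KO cells. Its log2 fold change in limma was 0.30 with an adjusted p-value of 0.0602, and 0.36 with 0.00452 on corrected values. The adjusted p-value was 0.00899 after median-of-ratios scaling and 0.00370 after quantile normalization.

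In the adherens junction, the sister junction that is anchored to actin, 2 of 8 core genes fell and none rose, beside the same 4.09% and 0.781% of all tested genes. CDH1, the E-cadherin gene, fell from 42.7 ± 4.92 to 20.4 ± 5.73 TPM (SD, n = 5) with an adjusted p-value of 0.00311, and CDH3, the P-cadherin gene, from 135.8 to 84.4 TPM with 0.00371. Corrected log2 fold changes were -0.90 and -0.54, and on this scale 3 of the 8 were lower, CTNND1 in addition. Of 15 tested regulators of desmosomes, only GRHL2, an epithelial transcription factor gene, passed, falling from 9.53 to 4.54 TPM with an adjusted p-value of 0.00732 (0.0173 after correction). On corrected values 2 of the 15 were lower (GRHL2 and EGFR) and 1 higher (ZEB1). Over all tested genes 4.09% were lower and 0.781% higher, and on corrected values 5.6% and 3.96%. With counts as small as 1 gene before and 3 after correction, nothing is read from them about regulators.

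The desmocollin and desmoglein genes lie in 1 cluster on chromosome 18. A list of 9 other genes of the region held DSG1, DSG3, DSG4 and DSC1 of the cluster itself and CDH2 and TTR, all under 1 TPM in every library, and 3 flanking genes that were tested. RNF125, a ubiquitin ligase gene, fell from 9.38 to 4.39 TPM with an adjusted p-value of 0.00227 and a log2 fold change of -0.95 (-0.79 after correction). B4GALT6, which lies between the cluster and RNF125, averaged 17.66 and 17.04 TPM, and TRAPPC8 22.56 and 17.03 TPM with an adjusted p-value of 0.106. On corrected values TRAPPC8 was also lower, with an adjusted p-value of 0.0473, and on deposited TPM it was at 0.0385 without HCT116-CD276KO replicate 1.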

How the data were processed

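RNA of 5 HCT116-WT and 5 HCT116-CD276KO cultures was sequenced from strand-specific libraries of polyadenylated RNA. The authors aligned reads with STAR 2.5.2b (GRCh38), quantified genes with RSEM 1.3.0 and featureCounts 1.5.1 and deposited TPM values. Which program gave the TPM is not given in the sources used here. The paper gives an average sequencing depth over the samples. TPM keep no read number, so the depth of each library is not known from them, and the precision rests on the cultures. Libraries summed to between 999999 and 1000000 TPM. The paper tested counts with limma/voom, which were not analysed here.

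Genes averaging 1 TPM or more were compared on log2(TPM + 1), which understates changes of low genes, in limma 3.58.1 (R 4.3.3) with a variance trend and Benjamini-Hochberg adjustment over all 13581 genes. Single ratios were tested by two-sided exact permutation (scipy 1.17.1). The corrected values had each library's local-regression trend with transcript length and GC content (span 0.3) removed, for 13472 genes. Positions and canonical transcript lengths came from GENCODE 44 on hg38, newer than the authors' annotation. Promoter windows came from RefSeq, the first listed start of each gene.

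The members and all lists were chosen with earlier results of these data known. The genes named were CD276, all 10 members, and list genes past the threshold or, where none was, the most abundant. The values of some other genes were added after they were seen (the cell type markers, KRT23 and the neighbours B4GALT6 and TRAPPC8). Alternatives were a pseudocount of 0.1, no filter, a minimum of 5 TPM, median-of-ratios and quantile scaling, robust variance, the replicate number as a block, no pseudocount, and omission of each library. The omission of HCT116-CD276KO replicates 2 and 3 together was chosen after seeing the data. The fit was tested on simulated data that held no added GC trend, so the GC part of the correction was not tested in this way.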

Additional observations from a re-analysis of the deposited data

Results flagged for a closer look

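None of the 10 desmosome genes had a library set far apart from the other 4 of its group. Among 28 genes in 2 groups (56 groups of 5), 2 had one, where chance gives about 2.8. KRT8 in HCT116-CD276KO replicate 2 stood at 1747 TPM, with the other 4 between 1474 and 1532 TPM, so that the gap to the nearest took 0.788 of the range (limit 0.71). KRT19 in HCT116-WT replicate 3 stood at 1481 TPM, with the others between 1175 and 1255 TPM, a share of 0.737.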

How the results depend on the processing

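All 10 desmosome genes kept a negative log2 fold change under each alternative that gave a value (21, or 20 for DSC3). On deposited TPM with all libraries, 9243 of the 13581 tested genes also had a negative one. With an adjusted p-value under 0.05, 662 genes were counted in all, 1288 after the length and GC correction, 378 with the replicate block, 339 without HCT116-CD276KO replicates 2 and 3, and 343 to 857 with 1 library left out. This count moved by over 1.5 times without HCT116-WT replicates 1 (345), 2 (376), 4 (421) or 5 (343), or HCT116-CD276KO replicates 3 (407) or 4 (375). Of the desmosome genes, 4 to 6 were counted with 1 library left out, 5 with the block and 2 without HCT116-CD276KO replicates 2 and 3. The ratio of JUP to DSP changed by -0.20 after correction, and by 0.0306 without HCT116-WT replicate 3 and 0.0131 without HCT116-CD276KO replicate 5, where its sign reversed (range with 1 library left out -0.16 to 0.03). That of PKP3 to PKP2 ranged from -1.12 to -0.92 and missed the threshold without HCT116-WT replicate 3, where the groups still did not overlap. Without HCT116-CD276KO replicates 2 and 3, DSC2 to DSG2 changed by -0.19. The causes were not tested.

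Same-numbered libraries did not deviate together on uncorrected values (correlations of -0.18 to 0.12, 1 of 5 above 0.1). The labels do not say whether the numbers pair the cultures. These correlations cannot decide it, since the library trends with length and GC content remain in them. With same-numbered pairs as a replicate block, the PKP3 to PKP2 ratio changed by -1.02 with an adjusted p of 0.25 (exact sign-flip permutation test, in which 5 pairs cannot reach a raw p below 0.0625). TPM hold no read number for each library, so the counting error of a gene was not computed, and the 5 knockout cultures are 1 clone.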
